A study of Mus musculus with 69 samples.

Results

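The genes described here are 41 genes of the NRF2 pathway and of glutathione and thioredoxin metabolism, measured by RNA-seq in kidney tubules dissected from male C57BL/6 mice. They were chosen by name, and all 41 were found in each of the 4 deposited TPM tables, which list 55487 gene identifiers at 24 h and 53700 at 72 h. The mice were wild type and 7 weeks old at surgery. In a group called UNx (unilateral nephrectomy) 1 kidney was excised, and the controls were sham-operated. At 24 h or 72 h after surgery, tubules were microdissected from the S1 part of the proximal tubule, called PT-S1, and from the collecting duct of the cortex, called CCD. PT-S1 comprised 3 sham and 4 UNx animals at 24 h and 5 and 5 at 72 h, and CCD comprised 4 sham and 3 UNx animals at 24 h and 4 and 4 at 72 h. Most animals gave several libraries, which were averaged per animal, and the animal is the replicate throughout.

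NRF2, encoded by Nfe2l2, is a transcription factor that KEAP1 captures and hands to a ubiquitin ligase under resting conditions. Oxidants and electrophiles modify KEAP1, NRF2 then accumulates, pairs with small MAF proteins and binds antioxidant response elements (ARE) in the promoters of its targets. These targets make and recycle glutathione, run the thioredoxin system, supply NADPH and conjugate or reduce reactive compounds. In the kidney the proximal tubule has a heavy load of mitochondrial respiration and of organic solute uptake, and it secretes the plasma glutathione peroxidase GPX3.

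The element is known by a core of the letters TGACNNNGC, which was looked for in the members' promoters. Of the 41 members, 36 had a promoter in the RefSeq table of build GRCm38.p6, which covers 250 bases before and 50 bases after each start. The other 5, Hmox1, Gsr, Gsta4, Gclc and Prdx6, had none there and were not searched. The core was found on either strand in 12 of these 36 members (33.3%) and in 14.0% of all 27025 genes of that table. The members with it were G6pdx, Gclm, Gsta3, Me1, Mgst1, Nfe2l2, Pgd, Prdx1, Sod1, Srxn1, Txnrd1 and Ugdh. The AP-1 letters TGANTCA, which can overlap the core, occurred in 5 of 36 members (13.9%) and in 8.97% of all genes. The 3 members Me1, Prdx1 and Srxn1 held both. The following windows are a selection, 1 for each of 9 members whose values are described below, written along the gene's strand with the matched letters in capitals. All lie before the start, and where the capitals read GC first the core is on the opposite strand.
Mgst1: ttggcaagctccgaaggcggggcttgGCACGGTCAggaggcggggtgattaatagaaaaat
Gsta3: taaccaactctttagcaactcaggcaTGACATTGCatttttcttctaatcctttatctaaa
Gstp1: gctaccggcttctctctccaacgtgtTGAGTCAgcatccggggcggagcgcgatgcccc
Prdx1: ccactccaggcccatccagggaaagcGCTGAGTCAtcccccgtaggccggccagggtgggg
Gclm: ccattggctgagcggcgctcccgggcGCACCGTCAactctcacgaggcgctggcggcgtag
Txnrd1: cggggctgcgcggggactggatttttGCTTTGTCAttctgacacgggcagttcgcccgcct
G6pdx: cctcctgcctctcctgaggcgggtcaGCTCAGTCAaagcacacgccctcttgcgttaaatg
Nfe2l2: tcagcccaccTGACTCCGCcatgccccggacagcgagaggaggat
Srxn1: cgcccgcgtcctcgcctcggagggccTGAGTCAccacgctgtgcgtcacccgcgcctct
In GRCm38.p6 these windows are Mgst1 at chr6:138140445-138140505, plus strand, Gsta3 at chr1:21240438-21240498, plus strand, and Gstp1 at chr19:4037954-4038012, minus strand. Prdx1 is at chr4:116685440-116685500, plus strand, Gclm at chr3:122245397-122245457, plus strand, Txnrd1 at chr10:82859088-82859148, plus strand, and G6pdx at chrX:74428903-74428963, minus strand. Nfe2l2 is at chr2:75704869-75704913, minus strand, and Srxn1 at chr2:152105396-152105454, plus strand. The capitals begin 56 bases before the start in Mgst1, 57 in G6pdx, 74 in Gstp1, 92 in Txnrd1, 121 in Gsta3, 102 in Srxn1, 133 in Prdx1, 134 in Gclm and 240 in Nfe2l2. In Gstp1 and Srxn1 the capitals are the AP-1 letters, and the core is not in these windows. Srxn1 holds the AP-1 letters again 45 bases before the start, and its core lies after the start. In Prdx1 the AP-1 letters overlap the core. A match is a match of letters, and nothing on binding was measured here.

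TPM values carry no sequencing depth, so depth is unknown and no counting error can be given. The libraries had 9247 to 14875 genes with at least 1 TPM. Correlated with every other library of its table, a library had a median r of at least 0.92 in all but 5 of 69 cases, and these 5 had 0.824 to 0.914. They were 2 of PT-S1 sham at 24 h (animals 1 and 3), 2 of PT-S1 UNx at 72 h (animals 1 and 2) and 1 of CCD sham at 72 h (animal 1), and changes of named genes that moved by over 1.5 times without them are given with and without them. The labelled segments carried their markers. The summed level of 6 markers of the proximal tubule S1/S2 segments was 5312 to 15262 TPM per animal in PT-S1 and 9.98 to 56.4 TPM in CCD. That of 6 principal cell markers was 18746 to 61415 TPM in CCD and 26.2 to 109 TPM in PT-S1. In bulk tubules, fewer cells of a type and less RNA per cell cannot be told apart.

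The members differed widely in level between the segments of sham animals. The tables were treated as scaled separately, so the following ratios are descriptions with no test. In the sham animals 15 members were higher in PT-S1 in every animal than in any CCD animal at 24 h and 16 at 72 h, of which 14 were the same. Those higher in CCD numbered 15 at 24 h and 13 at 72 h, of which 11 were the same. Without the libraries of low correlation the members higher in PT-S1 numbered 16 and 17 and those higher in CCD 16 and 13 at 24 h and 72 h, and of the members Slc7a11 at 24 h alone had a ratio that moved by over 1.5 times.

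Several genes of peroxide removal and iron storage had higher means in PT-S1 than in CCD. Gpx3, the secreted glutathione peroxidase, had a mean of 83075 TPM in PT-S1 and 241 TPM in CCD at 24 h. Its range over sham animals at 24 h was 72677 to 103467 TPM in PT-S1 and 141 to 373 TPM in CCD. The PT-S1 mean was 345 times the CCD mean at 24 h and 456 times at 72 h. In sham animals at 24 h the 6 S1/S2 markers summed to 10575 to 14384 TPM in PT-S1 and 24.8 to 56.4 TPM in CCD. The part of proximal cells in the Gpx3 level of CCD was not tested. Gpx1, the cytosolic glutathione peroxidase, was at 5278 TPM in PT-S1 and 598 TPM in CCD at 24 h, a ratio of 8.82. Catalase (Cat) was at 613 and 123 TPM. The ferritin chains Fth1 and Ftl1, which store iron, had ratios of 4.8 and 4.76 at 24 h.

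Other PT-S1-high members make glutathione or NADPH. Gss, the second enzyme of glutathione synthesis, was 8.75 times as high in PT-S1 as in CCD at 24 h and 6.22 times at 72 h. Me1, the cytosolic malic enzyme that yields NADPH, was 15.5 and 22.4 times as high. Gsta2, an alpha-class glutathione transferase, had the second largest ratio of the members toward PT-S1, with 57.4 at 24 h and 63.7 at 72 h. Gsta2 has near-identical relatives, among which reads may have been divided.

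NRF2 itself was among the CCD-high members. Nfe2l2 (ENSMUSG00000015839) ranged over 358 to 402 TPM in CCD and 37.3 to 46.4 TPM in PT-S1 sham animals at 24 h, and over 299.9 to 326 TPM and 29.2 to 39.2 TPM at 72 h. Gclc, the catalytic subunit of glutamate-cysteine ligase, had a CCD mean 6.25 times that of PT-S1 at 24 h, whereas its modifier subunit Gclm was 2.15 times as high in PT-S1. The 2 subunits of this rate-limiting enzyme of glutathione synthesis thus lay on opposite sides in sham animals at 24 h and at 72 h. The largest ratio toward CCD at 24 h was that of the mu-class transferase Gstm2, at 1383 TPM in CCD and 1.52 TPM in PT-S1. The 6 principal cell markers summed to 19241 to 45883 TPM in CCD and 55.7 to 89.0 TPM in PT-S1 sham animals at 24 h. The part of principal cells in the Gstm2 level of PT-S1 was not tested. Ephx1, the microsomal epoxide hydrolase, was at 223 and 2.8 TPM, and Mgst1, a membrane-bound glutathione transferase, at 868 and 99.1 TPM. Slc7a11, the cystine transporter of the plasma membrane, was low in both segments, with means of 0.889 TPM in CCD and 0.073 TPM in PT-S1 at 24 h.

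**Figure D1:**
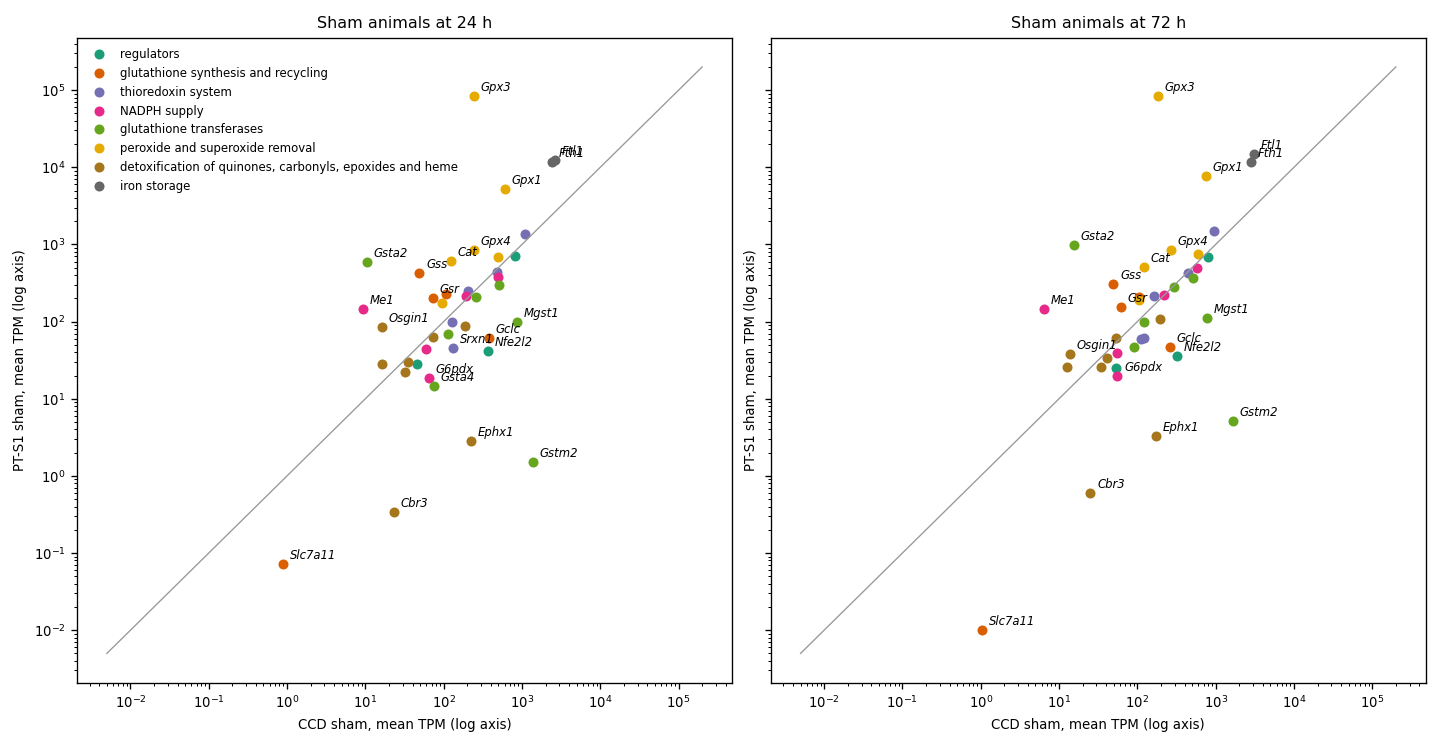
Mean TPM over sham animals in CCD (x, log axis) against PT-S1 (y, log axis) at 24 h and 72 h, 1 point per member, coloured by role, with the line of equal values. Gpx3, Gsta2 and Me1 lie far above the line and Gstm2, Ephx1 and Cbr3 far below it at both times.

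After UNx no member passed the threshold of an adjusted p of 0.05 in any of the 4 tables (limma on log2(TPM + 1) of animal means, Benjamini-Hochberg adjustment over all genes tested). Genes with a mean of at least 1 TPM were tested, which kept 40 members in PT-S1 at 24 h (Slc7a11 was left out), 39 in PT-S1 at 72 h (Slc7a11 and Cbr3 were left out) and all 41 in CCD at each time. Over all genes tested, 0% passed in PT-S1 at 24 h, 0% in PT-S1 at 72 h, 0.987% (136 of 13775) in CCD at 24 h and 0.595% (82 of 13770) in CCD at 72 h. At an unadjusted limma p under 0.05 the members numbered 7 of 40, 2 of 39, 5 of 41 and 9 of 41 in that order. The share among all genes was 17.8%, 20.5%, 15.5% and 7.49%. With all libraries the members' share in CCD at 72 h, 22.0%, was above that of all genes. It was near that of all genes in PT-S1 at 24 h (17.5%) and below it in the other tables. The CCD count at 72 h was 5 of 41 under median-ratio scaling (7.59% of all genes) and 9 under quantile normalization (8.89%). It was 4 of 40 without UNx animal 3 (5.26%) and 12 of 41 without the library of low correlation (14.2%).

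The change of the typical member also differed by table. In PT-S1 at 24 h the median log2 change of the members was 0.27, against -0.19 for all genes, and 38 of 40 members lay above the median of all genes. This count was also 38 under median-ratio scaling, but 32 under quantile normalization and 30 when limma weighted the animals by their quality. In PT-S1 at 72 h the members' median change was -0.27 against -0.29, with 21 of 39 above. In CCD it was -0.0093 against -0.038 at 24 h, with 24 of 41 above, and 0.028 against 0.010 at 72 h, with 22 of 41 above. The median of all genes was shifted in both PT-S1 tables, so a change relative to all genes is the printed change minus that median. It is printed for a part of the genes whose picture it alters.

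**Figure D2:**
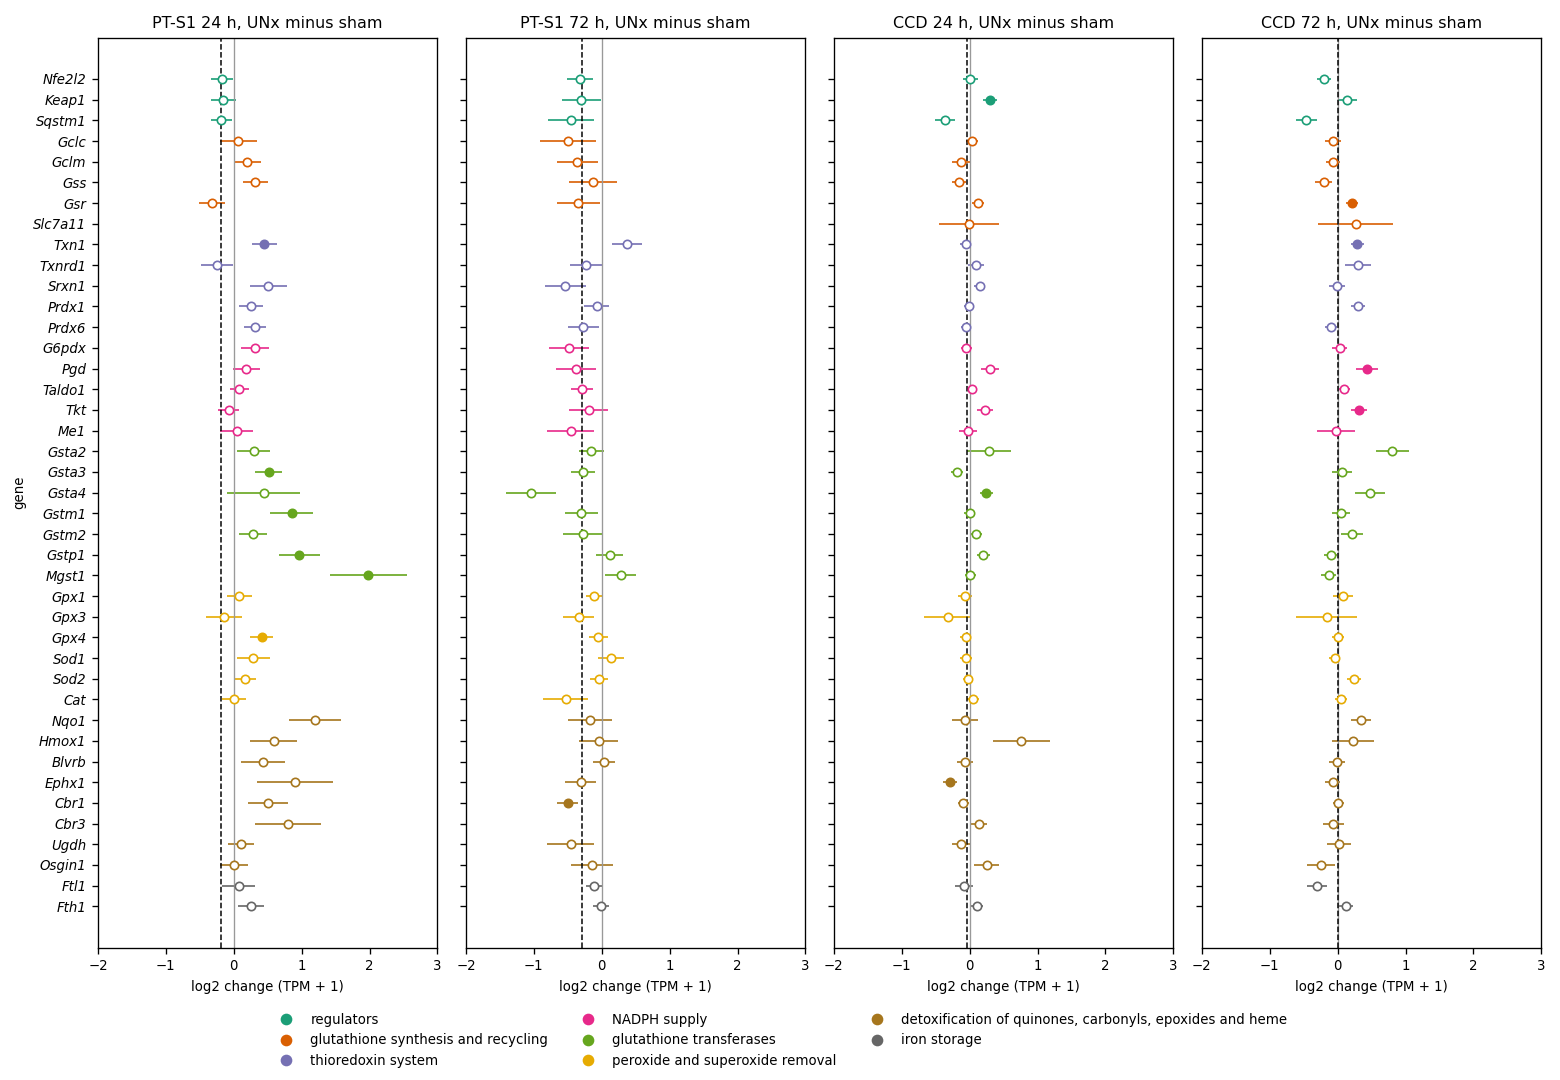
Log2 change of each tested member, UNx minus sham, on log2(TPM + 1) (point) with its standard error (bar) in the 4 tables, coloured by role. Filled points are members whose sham and UNx animals do not overlap, the dashed line is the median change of all genes tested, and in PT-S1 at 24 h 38 of 40 points lie to its right.

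In PT-S1 at 24 h the largest log2 changes of the members were those of Mgst1 (1.98), Nqo1 (1.20) and Gstp1 (0.97), none past the threshold. All 7 transferases had a positive log2 change, between 0.29 and 1.98, with a median of 0.51. Of the 8 detoxification genes all had a change above 0 and above the median of all genes, with a median of 0.55. Under median-ratio scaling and quantile normalization all 7 and all 8 were again above 0, and without the 2 sham libraries of low correlation all 7 transferases were, but 2 of the detoxification genes, Ugdh (-0.13) and Osgin1 (-0.17), were below 0. In 6 members every UNx animal lay above every sham animal, which are Mgst1, Gstp1, Gstm1, Gsta3, Txn1 and Gpx4 (15% of the 40 tested, against 2.79% of all genes), and in 0 members every UNx animal lay below (against 12.1% of all genes). Counted in either direction, the share without overlap was 15% of the members and 14.9% of all genes. The core TGACNNNGC was found in the promoters of Mgst1 and Gsta3 among these 6 and the AP-1 letters in that of Gstp1, while those of Gstm1, Txn1 and Gpx4 held neither in the window searched.

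Mgst1 (ENSMUSG00000008540) was at 67.9, 108 and 121 TPM in the 3 sham animals and 335, 278, 1393 and 167 TPM in the 4 UNx animals. The groups did not overlap, and UNx animal 3 stood far above the others. The log2 change was 1.98 (SE 0.57; limma adjusted p = 0.254). Set against the all-gene median it was 2.18. Without UNx animal 3 it was 1.36 (limma adjusted p = 0.116).

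Gstp1 (ENSMUSG00000060803), the pi-class cytosolic transferase, was at 163, 224 and 246 TPM in the 3 sham animals and 434, 306, 719 and 288 TPM in the 4 UNx animals. All UNx animals were above all sham animals, animal 3 again the highest. The change was 0.97 (SE 0.30; limma adjusted p = 0.254). Its neighbour Gstp2 is a near-identical copy, so the split of reads between them is uncertain. Gstm1, a mu-class transferase, was at 236, 312 and 338 TPM in the 3 sham animals and 448, 450.0, 1049 and 369 TPM in the 4 UNx animals, with a change of 0.85 (SE 0.32; limma adjusted p = 0.254). The groups did not overlap, and UNx animal 3 lay highest. Gsta3, an alpha-class transferase, was at 55.8, 79.4 and 71 TPM in the 3 sham animals and 97.5, 83.9, 129 and 85.1 TPM in the 4 UNx animals, with a change of 0.51 (SE 0.20; limma adjusted p = 0.255).

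Nqo1 (ENSMUSG00000003849), the quinone reductase that is a classical NRF2 target, was at 28.3, 34.2 and 22.3 TPM in the 3 sham animals and 70.9, 60.6, 130.0 and 32 TPM in the 4 UNx animals. UNx animals 1, 2 and 3 were above all sham animals and animal 4 lay within the sham range. The change was 1.20 (SE 0.38; limma adjusted p = 0.254), and 0.87 (limma adjusted p = 0.153) without UNx animal 3. Hmox1, which opens the heme ring, was at 22.4, 24.6 and 20.2 TPM in the 3 sham animals and 16.2, 32.2, 56.6 and 45.7 TPM in the 4 UNx animals, for a log2 change of 0.59 (SE 0.35; limma adjusted p = 0.357) in which UNx animal 1 was below every sham animal.

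UNx animal 3 was also the highest animal for 3 low members. Ephx1 was at 2.4, 2.35 and 3.64 TPM in the 3 sham animals and 2.82, 3.88, 25 and 4.01 TPM in the 4 UNx animals. Cbr3, a carbonyl reductase, was at 0.337, 0.425 and 0.269 TPM in the 3 sham animals and 0.65, 0.838, 6.19 and 0.363 TPM in the 4 UNx animals, and Gsta4, a transferase for lipid aldehydes, at 10.7, 21.3 and 11.2 TPM in the 3 sham animals and 6.62, 14.8, 54.8 and 22.6 TPM in the 4 UNx animals. Apart from animal 3, the values of these 3 genes overlapped between the groups. The summed level of 6 markers of the proximal tubule S3 segment reached 70.8, 22.6 and 82.6 TPM in sham animals 1, 2 and 3 and 67.7, 72.3, 225 and 12.7 TPM in UNx animals 1, 2, 3 and 4. UNx animal 3 was thus also the highest in S3 markers, and its sums were also the highest for the 6 endothelial markers (72.4 TPM, others at most 45.7 TPM) and the 6 podocyte markers (8.16 TPM, others at most 4.08 TPM). For the S1/S2 markers it was the lowest, at 8002 TPM with the others at 10575 TPM or more. The part of these lists in its member values was not tested.

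Within the thioredoxin system, Txn1 (thioredoxin) was at 203, 259 and 286 TPM in the 3 sham animals and 335, 316, 418 and 293 TPM in the 4 UNx animals, with a change of 0.45 (SE 0.18; limma adjusted p = 0.262). The groups did not overlap with all libraries, but they did without the 2 sham libraries of low correlation, where the change was 0.37 (limma adjusted p = 0.189). Prdx6, a peroxiredoxin, was at 380.4, 539.9 and 413 TPM in the 3 sham animals and 554, 551, 579 and 511 TPM in the 4 UNx animals, with a change of 0.32 (SE 0.16; limma adjusted p = 0.31). Sham animal 2 lay within the UNx range, and the change was 0.16 without the 2 libraries. Srxn1, which repairs overoxidised peroxiredoxins, was at 51.3, 48.5 and 35.7 TPM in the 3 sham animals and 49.2, 52.1, 111 and 58.5 TPM in the 4 UNx animals, with a change of 0.51 (SE 0.27; limma adjusted p = 0.328). UNx animal 3 was high and the other UNx animals lay near the sham animals, with a change of 0.32 without the 2 libraries. Txnrd1, the reductase that returns thioredoxin to its active form, was at 139, 89.3 and 71.3 TPM in the 3 sham animals and 80.8, 75.4, 102 and 67.8 TPM in the 4 UNx animals, for a log2 change of -0.25 (SE 0.23; limma adjusted p = 0.542). Sham animal 1 was the highest and the groups overlapped. Relative to the median of all genes the change was -0.060, and without the 2 libraries it was -0.14, or 0.074 relative to the median. Without sham animal 1 it was 0.014. Among peroxidases, Gpx4, which reduces lipid peroxides in membranes, was at 725, 863 and 944 TPM in the 3 sham animals and 1017, 1050.2, 1313 and 1102 TPM in the 4 UNx animals, with a change of 0.41 (SE 0.17; limma adjusted p = 0.264) and no overlap.

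The 3 regulators had changes just below 0, whose sign depended on the scaling. Nfe2l2 was at 37.3, 46.4 and 42.8 TPM in the 3 sham animals and 44.2, 36, 32.1 and 37.3 TPM in the 4 UNx animals, for a log2 change of -0.17 (SE 0.17; limma adjusted p = 0.557). Keap1 was at 28.8, 29.8 and 26.3 TPM in the 3 sham animals and 20.4, 23.5, 32.8 and 25.8 TPM in the 4 UNx animals, for a log2 change of -0.16 (SE 0.18; limma adjusted p = 0.635), and Sqstm1, the autophagy receptor that sequesters KEAP1, had a change of -0.18 (SE 0.16; limma adjusted p = 0.523). All 3 changes were close to the median of all genes, -0.19, and under median-ratio scaling they lay between 0.036 and 0.054. Without the 2 sham libraries of low correlation they were -0.27 in Nfe2l2, -0.25 in Keap1 and -0.34 in Sqstm1, where every UNx animal was then below every sham animal (limma adjusted p = 0.155). The glutathione synthesis genes were spread around zero. Gclc was at 82.1, 49.5 and 49.5 TPM in the 3 sham animals and 51.2, 59.2, 98.3 and 47.6 TPM in the 4 UNx animals, with a change of 0.066 (SE 0.27; limma adjusted p = 0.901). Gclm was at 231, 206 and 254 TPM in the 3 sham animals and 235, 246, 369.6 and 225 TPM in the 4 UNx animals, with a change of 0.20 (SE 0.19; limma adjusted p = 0.561). In both genes UNx animal 3 was the highest and the groups overlapped. Relative to the median of all genes the change of Gclc was 0.26, and without the 2 libraries it was -0.0067, or 0.21 relative to the median. Gsr, the glutathione reductase, had the lowest change of the tested members, -0.32 (SE 0.20; limma adjusted p = 0.373). Without the 2 libraries its change was -0.40 (limma adjusted p = 0.110), and every UNx animal was then below every sham animal. Relative to the median of all genes the changes of Gsr were -0.13 and -0.19. Slc7a11 had values of 0.0666, 0.00995 and 0.142 TPM in sham and 0, 0.00499, 0.0200 and 0.023 TPM in UNx animals, too low to test.

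**Figure D3:**
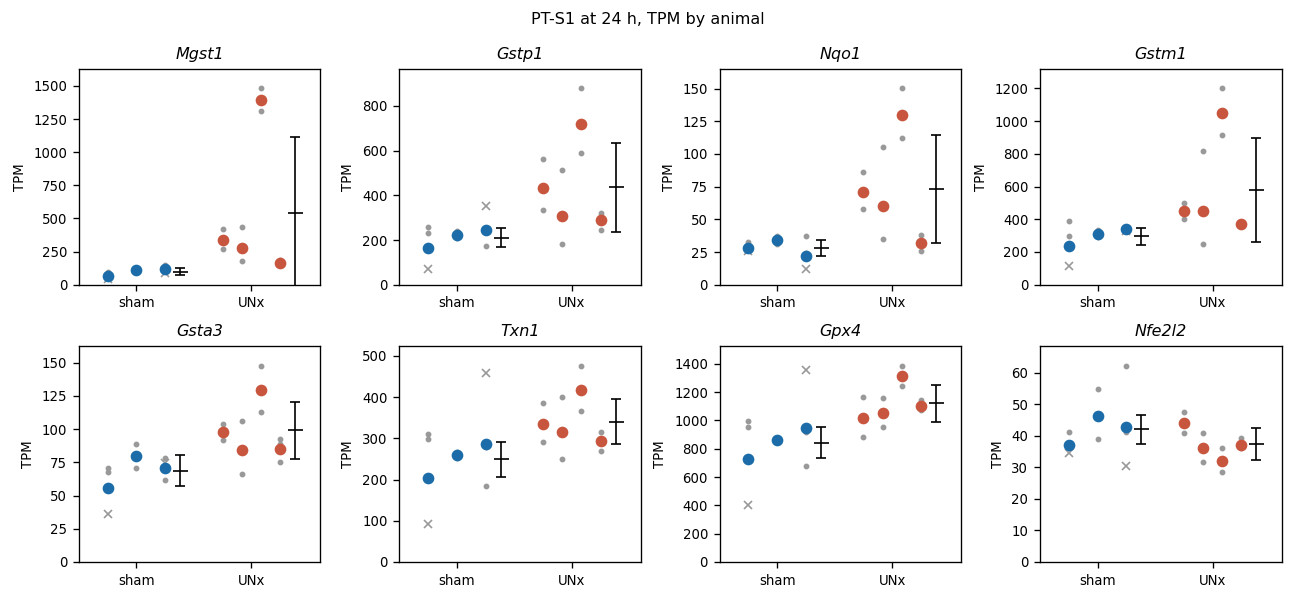
TPM in PT-S1 at 24 h for 8 members, by animal (large points) and library (small grey points, crosses for the libraries of low correlation), with the mean and SD over animals as the black bar. UNx animal 3, the third large UNx point, is the highest in Mgst1, Gstp1, Nqo1, Gstm1, Gsta3, Txn1 and Gpx4, and Nfe2l2 does not share the pattern.

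Leaving out the 2 sham libraries of low correlation, the members' median change was 0.13, against -0.21 for all genes, and 35 of 40 lay above the median of all genes. At an unadjusted p under 0.05 there were 8 members (6 higher and 2 lower; 24.7% of all genes). The groups did not overlap in 5 members higher (1.65% of all genes) and 2 lower (21.5%), and 0 members passed the adjusted threshold (0.00847% of all genes). With UNx animal 3 left out, 4 of 39 members had an unadjusted p under 0.05 (21.9% of all genes) in place of 7 of 40 (17.8%). A single member, Mgst1, was called when every library was taken as a replicate (0.716% of all genes called) and when animal was a random effect over libraries (0.842%). Mgst1 and Nqo1 were called when limma weighted the animals by their quality, a setting that called 12% of all genes. The macrophage and leukocyte markers, 8 genes in all, summed to 144 to 194 TPM in sham and 73.3 to 129 TPM in UNx animals without overlap, and their part in these results was not tested. The 5 erythrocyte markers summed to 17.0 TPM in UNx animal 3 and to at most 0.530 TPM in the other animals. The 4 markers of the distal convoluted tubule were low, with sums of 1.35 to 1.75 TPM in sham and 0.470 to 1.28 TPM in UNx animals, also without overlap. The part of these lists was not tested either.

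In PT-S1 at 72 h the members' changes lay close to the shift of all genes, and many of them depended on 2 poorly correlated UNx libraries. Cbr1, a carbonyl reductase, and Gsta4 had the smallest p. Cbr1 (ENSMUSG00000051483) was at 126, 108, 108, 115 and 89.2 TPM in the 5 sham animals and 75.4, 68.3, 70.2, 87.1 and 82.7 TPM in the 5 UNx animals. Every UNx animal was below every sham animal, by a narrow gap between UNx animal 4 and sham animal 5. The change was -0.50 (SE 0.16; limma adjusted p = 0.237), and -0.40 (SE 0.10; limma adjusted p = 0.204) without the 2 libraries. Relative to the median of all genes it was -0.22, and -0.38 without them. Cbr1 was the only member without overlap (2.56% of the 39 tested), where 5.33% of all genes were lower and 0.236% higher without overlap. Under median-ratio scaling its change was -0.12 and the groups overlapped.

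Gsta4 (ENSMUSG00000032348) was at 50.5, 52.4, 60.1, 54.1 and 17.1 TPM in the 5 sham animals and 16.2, 15.6, 18.5, 47.1 and 16 TPM in the 5 UNx animals. In this gene 4 sham animals were high and 4 UNx animals low, while sham animal 5 lay with the low animals and UNx animal 4 near the high animals. The change was -1.04 (SE 0.37; limma adjusted p = 0.237) and remained -0.98 (limma adjusted p = 0.216) without the 2 libraries. The S3 markers summed to 12.2 to 153 TPM in sham animals, with the highest value in sham animal 5, and to 10.0 to 78.5 TPM in UNx animals, with the highest in animal 4. Their part in Gsta4 was not tested.

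In the other members with the smallest p, UNx animals 1 and 2 stood apart from the other animals. Srxn1 was at 63.5, 75.5, 62.4, 57.3 and 50.3 TPM in the 5 sham animals and 22.4, 26.5, 50.6, 67.7 and 63.2 TPM in the 5 UNx animals, with a change of -0.53 (SE 0.30; limma adjusted p = 0.284) that was 0.0071 without the 2 libraries. Txn1 was at 218, 189, 207, 229.6 and 236 TPM in the 5 sham animals and 368, 429, 199.8, 218 and 245 TPM in the 5 UNx animals, for a log2 change of 0.37 (SE 0.22; limma adjusted p = 0.303) that was -0.065 without them. The 2 libraries held 806 and 885 TPM of Txn1, and the other library of the same animals 167 and 208 TPM. In Keap1 they held 3.67 and 4.88 TPM against 27.6 and 28.8 TPM in the other library of the same animals.

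Catalase was at 478, 603, 416, 395 and 649.6 TPM in the 5 sham animals and 163, 221, 523, 527 and 491 TPM in the 5 UNx animals, for a log2 change of -0.53 (SE 0.33; limma adjusted p = 0.32), and 0.033 without the 2 libraries. G6pdx, which opens the pentose phosphate pathway, went from -0.48 to 0.043. Taldo1, the transaldolase of the same pathway, went from -0.29 to -0.091, and Nfe2l2 from -0.32 (SE 0.19; limma adjusted p = 0.312) to -0.031. Among the defining genes, Gclc went from -0.49 to 0.13, Gclm from -0.36 to -0.038, Txnrd1 from -0.23 to 0.17 and Nqo1 from -0.17 to 0.071. Keap1 went from -0.30 to 0.19 (limma adjusted p = 0.282) and Hmox1 from -0.047 to 0.34. With all libraries, the changes relative to the median of all genes were 0.12 in Nqo1, 0.056 in Txnrd1 and 0.24 in Hmox1. Those of Nfe2l2, Keap1, Gclc and Gclm were -0.028, -0.014, -0.21 and -0.075. Mgst1 and Gstp1, the 2 members with the smallest p at 24 h, had changes of 0.28 (SE 0.22; limma adjusted p = 0.42) and 0.12 (SE 0.20; limma adjusted p = 0.704) at 72 h. Relative to the median of all genes these were 0.57 and 0.40, and 0.31 and 0.12 without the 2 libraries. For Txn1 the relative values were 0.66 and -0.043.

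**Figure D4:**
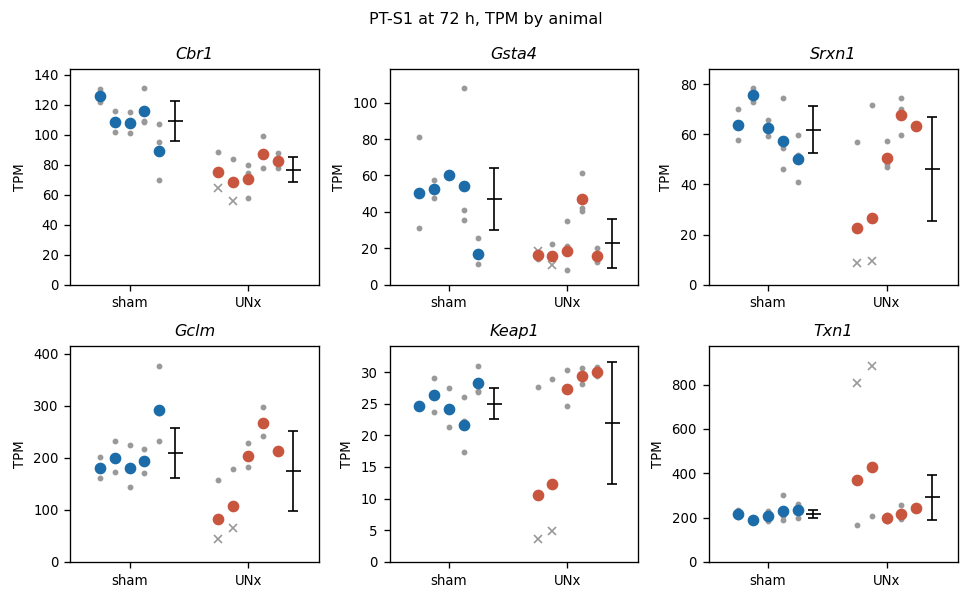
TPM in PT-S1 at 72 h for 6 members, by animal (large points) and library (small grey points, crosses for the 2 UNx libraries of low correlation), with the mean and SD over animals as the black bar. The crosses lie far below the other libraries in Srxn1, Gclm and Keap1 and far above them in Txn1, and not apart from them in Gsta4.

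Without the 2 libraries the median change was 0.0071 for the members and -0.021 for all genes. At an unadjusted p under 0.05 there were 7 of 39 members, or 17.9%, against 17.7% of all genes. Non-overlap was seen in 0 members higher (1.54% of all genes) and 1 lower (1.62%), and 0 members passed the adjusted threshold (0.00837% of all genes). With limma's quality weights Cbr1, Gsta4 and Mgst1 were called, in a setting that called 11.3% of all genes. The 6 intercalated cell markers summed to 3.09 to 17.9 TPM in sham and 1.84 to 2.81 TPM in UNx animals without overlap, and their part in these results was not tested.

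In CCD at 24 h the members with the smallest p were small differences in both directions. Keap1 (ENSMUSG00000003308), the NRF2 repressor, was at 41.1, 49.9, 41.6 and 50.3 TPM in the 4 sham animals and 54.9, 60.7 and 52.9 TPM in the 3 UNx animals. Every UNx animal was above every sham animal. The change was 0.30 (SE 0.10; limma adjusted p = 0.214). Ephx1 (ENSMUSG00000038776) was at 247, 194, 207 and 244 TPM in the 4 sham animals and 167, 188 and 188 TPM in the 3 UNx animals, with every UNx animal below every sham animal and a change of -0.29 (SE 0.10; limma adjusted p = 0.216). Gsta4 was at 85.4, 73.9, 65.5 and 73.5 TPM in the 4 sham animals and 86.5, 88.7 and 89.4 TPM in the 3 UNx animals, with no overlap and a change of 0.24 (SE 0.093; limma adjusted p = 0.25). These 3 were the members without overlap, 2 higher (4.88%, against 5.55% of all genes) and 1 lower (2.44%, against 9.51%).

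Sqstm1 was at 958, 770.1, 643 and 882 TPM in the 4 sham animals and 521, 661 and 705 TPM in the 3 UNx animals, for a log2 change of -0.37 (SE 0.15; limma adjusted p = 0.287). The groups overlapped in sham animal 3 and UNx animals 2 and 3. Pgd, the second NADPH-yielding enzyme of the pentose phosphate pathway, was at 60.2, 61, 46.1 and 69.9 TPM in the 4 sham animals and 74.4, 78.3 and 65.8 TPM in the 3 UNx animals, with a change of 0.30 (SE 0.13; limma adjusted p = 0.321). Tkt, its transketolase, had a change of 0.23 (SE 0.12; limma adjusted p = 0.392), Gstp1 of 0.20 (SE 0.098; limma adjusted p = 0.37) and Gsta3 of -0.19 (SE 0.09; limma adjusted p = 0.353). Nfe2l2 differed little, at 358, 359.7, 402 and 367 TPM in the 4 sham animals and 307, 422 and 399 TPM in the 3 UNx animals, a change of 0.00461 (SE 0.11).

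Of the other defining genes, Hmox1 had the highest change and the widest spread of the members, at 18.1, 51.2, 13.7 and 45.6 TPM in the 4 sham animals and 43.2, 42.5 and 58.7 TPM in the 3 UNx animals, for a log2 change of 0.76 (SE 0.42; limma adjusted p = 0.434). Sham animals 1 and 3 were low and sham animals 2 and 4 lay within the UNx range. Nqo1 (-0.074), Gclc (0.036), Gclm (-0.13), Txnrd1 (0.091) and Srxn1 (0.15) had log2 changes between -0.13 and 0.15. Slc7a11 was at 1.09, 1.29, 0.38 and 0.786 TPM in the 4 sham animals and 0.422, 0.0392 and 3.24 TPM in the 3 UNx animals. When every library was taken as a replicate, Ephx1 and Sqstm1 were called (7.46% of all genes), and Ephx1 alone with animal as a random effect (3.52% of all genes). The 6 S3 markers summed to 103 to 121 TPM in sham and 72.8 to 98.1 TPM in UNx animals, and the 4 markers of the distal convoluted tubule to 278 to 404 TPM and 405 to 465 TPM, each without overlap, and their part in these results was not tested.

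In CCD at 72 h the 9 members with an unadjusted p under 0.05 were Gsta2, Txn1, Prdx1, Tkt, Pgd, Gsr, Nqo1 and Sod2, with a higher level in UNx, and Sqstm1, with a lower one. They came from 7 of the 8 roles into which the members were divided, and none passed the threshold. Gsta2 (ENSMUSG00000057933) was at 13.8, 11.1, 20.4 and 17.1 TPM in the 4 sham animals and 21.7, 19.7, 34.5 and 37.3 TPM in the 4 UNx animals. UNx animals 3 and 4 were above all others, and UNx animals 1 and 2 lay around the highest sham animal. The change was 0.80 (SE 0.24; limma adjusted p = 0.338).

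Txn1 (ENSMUSG00000028367) was at 178, 157, 145 and 179 TPM in the 4 sham animals and 189, 213, 201 and 203 TPM in the 4 UNx animals, with no overlap and a change of 0.29 (SE 0.097; limma adjusted p = 0.418). Prdx1, the peroxiredoxin that thioredoxin reduces, was at 1086, 922, 836 and 954 TPM in the 4 sham animals and 1189.7, 1076, 1213 and 1188 TPM in the 4 UNx animals, with a change of 0.30 (SE 0.10; limma adjusted p = 0.428). Sham animal 1 lay just inside the UNx range. Without the sham library of low correlation, which belongs to that animal, the groups did not overlap and the changes were 0.43 in Txn1 (limma adjusted p = 0.156) and 0.36 in Prdx1 (limma adjusted p = 0.0941). Txn1 and Prdx1 have processed pseudogenes, so reads may be shared with copies.

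Tkt was at 182, 205, 252 and 244 TPM in the 4 sham animals and 264, 270.0, 301 and 259 TPM in the 4 UNx animals, with no overlap and a change of 0.32 (SE 0.12; limma adjusted p = 0.536). Pgd was at 36.3, 58.5, 58.8 and 63.2 TPM in the 4 sham animals and 72, 65.5, 79.7 and 70.9 TPM in the 4 UNx animals, with no overlap and a change of 0.43 (SE 0.17; limma adjusted p = 0.574). Sham animal 1 lay far below the other sham animals, and without its library of low correlation the change of Pgd was 0.29 (limma adjusted p = 0.194). G6pdx, the first enzyme of the same pathway, had a change of 0.028 (SE 0.11; limma adjusted p = 0.98), and -0.070 without the library. Taldo1 of that pathway was at 0.099, and Prdx6 of the thioredoxin system at -0.097. Gsr was at 60.6, 61.8, 68 and 57.8 TPM in the 4 sham animals and 71.5, 72.7, 71.7 and 70.4 TPM in the 4 UNx animals, with no overlap and a change of 0.21 (SE 0.088; limma adjusted p = 0.627). That of Gsr depended on the library, since its change was 0.08 and the groups overlapped without it.

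Sqstm1 was at 609, 875, 969 and 728 TPM in the 4 sham animals and 542, 662, 597 and 484 TPM in the 4 UNx animals, for a log2 change of -0.46 (SE 0.16; limma adjusted p = 0.434) with overlap through sham animal 1. Without the library the change was -0.54 (limma adjusted p = 0.0981) and the groups did not overlap. Nqo1 was at 15.3, 11.3, 9.92 and 14.1 TPM in the 4 sham animals and 17.2, 15.2, 16.5 and 15.7 TPM in the 4 UNx animals, for a log2 change of 0.34 (SE 0.15; limma adjusted p = 0.652), and Sod2, the mitochondrial superoxide dismutase, had a change of 0.24 (SE 0.11; limma adjusted p = 0.652). Nfe2l2 was at 326, 326, 320.1 and 299.9 TPM in the 4 sham animals and 325, 286, 259.8 and 238 TPM in the 4 UNx animals, for a log2 change of -0.21 (SE 0.11; limma adjusted p = 0.748). Keap1, Hmox1, Gclm, Gclc and Srxn1 had changes of 0.14, 0.22, -0.072, -0.071 and -0.0069, and Txnrd1 of 0.30 (SE 0.19; limma adjusted p = 0.838). Without the library of low correlation they were 0.037, 0.46, -0.06, -0.24, -0.13 and 0.084 in the same order. Slc7a11 was at 0.0296, 3.24, 0.16 and 0.72 TPM in the 4 sham animals. In the 4 UNx animals it was at 0.528, 0.08, 4.18 and 1.12 TPM, for a log2 change of 0.26 (SE 0.56; limma adjusted p = 0.966).

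**Figure D5:**
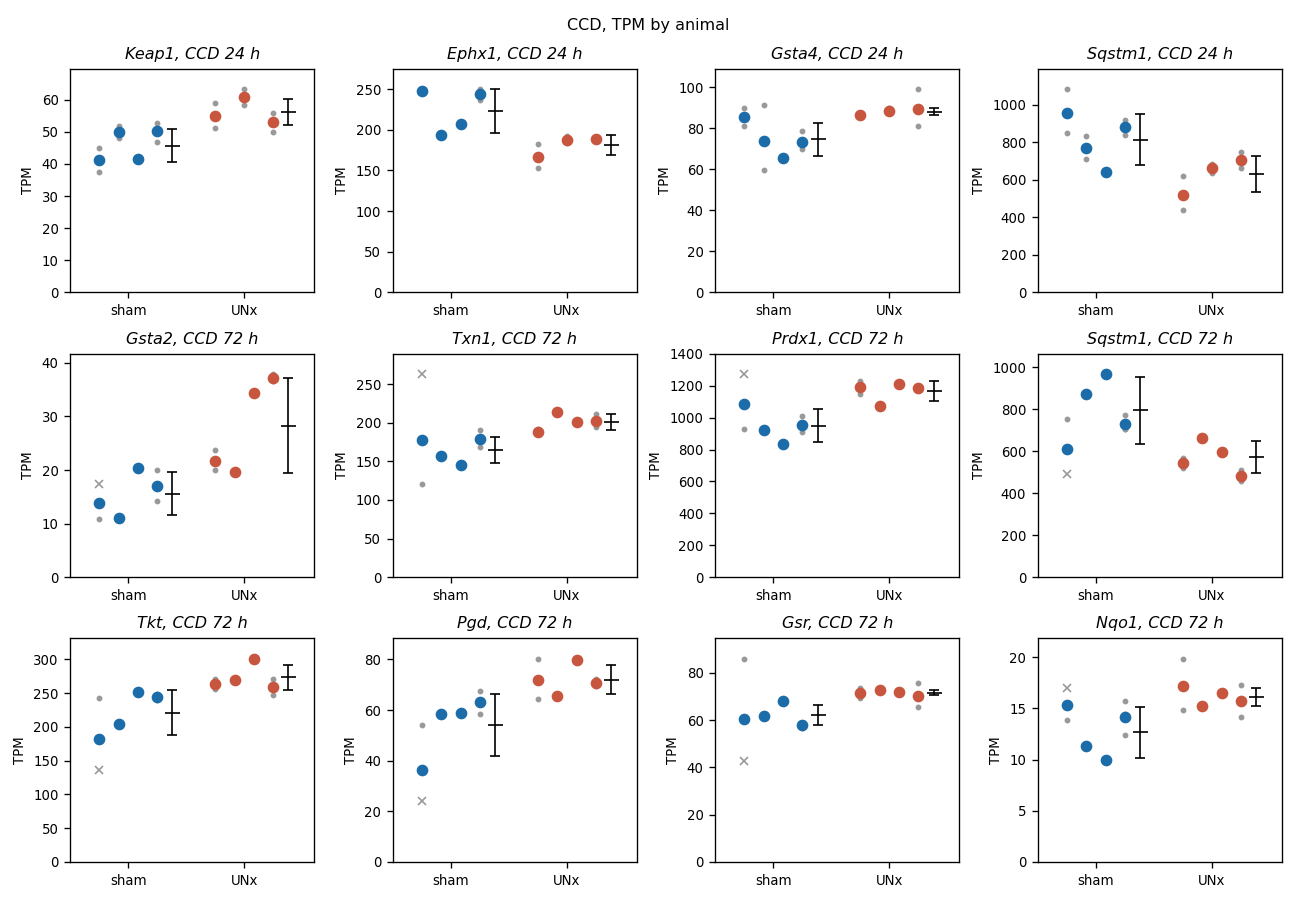
TPM in CCD for 4 members at 24 h and 8 at 72 h, by animal (large points) and library (small grey points, a cross for the sham library of low correlation), with the mean and SD over animals as the black bar. Keap1 and Gsta4 at 24 h and Txn1, Tkt, Pgd and Gsr at 72 h have every UNx animal above every sham animal, and Ephx1 at 24 h every UNx animal below.

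With all libraries, 4 members were higher without overlap (9.76%, against 3.23% of all genes) and 0 lower (against 1.54%). Without the library of low correlation, 8 were higher (3.78% of all genes) and 1 lower (4.86%), 12 had an unadjusted p under 0.05 (14.2% of all genes), and 0 passed the adjusted threshold (0.937%). The members' median change was then 0.080 against -0.072 for all genes, and 31 of 41 lay above the median of all genes.

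The difference of the UNx effects between times or segments was tested for the same members in a model of 4 groups, and no member passed in any of the 4 comparisons. The share called among all genes was 0% for 72 h against 24 h in PT-S1, 0% in CCD, 0.137% for PT-S1 against CCD at 24 h and 0% at 72 h. At an unadjusted p under 0.05 the members numbered 9 of 39 (3.33% of all genes), 3 of 41 (4.96%), 10 of 40 (15.4%) and 4 of 39 (9.33%) in that order. Without the libraries of low correlation they numbered 12 of 39 (22.6% of all genes), 3 of 41 (8.47%), 8 of 40 (20.9%) and 10 of 39 (14.9%). The comparisons share groups of animals and are not independent. The lowest adjusted p came from PT-S1 against CCD at 24 h. Gsta3 had a difference of 0.70 (SE 0.22; limma adjusted p = 0.194), from 0.51 in PT-S1 and -0.19 in CCD. Mgst1 had a difference of 1.97 (SE 0.67; limma adjusted p = 0.221), from 1.98 and 0.010. Those of Gpx4 and Nqo1 were 0.47 (SE 0.17; limma adjusted p = 0.23) and 1.27 (SE 0.47; limma adjusted p = 0.243).

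At 72 h the smallest p between segments were those of Gsta2, with a difference of -0.96 (SE 0.31; limma adjusted p = 0.495), Gsta4, with -1.52 (SE 0.49; limma adjusted p = 0.495), Cbr1 and Pgd. Cbr1 differed by -0.51 (SE 0.18; limma adjusted p = 0.495) and Pgd by -0.81 (SE 0.38; limma adjusted p = 0.495). The difference of Pgd was -0.20 (SE 0.12; limma adjusted p = 0.452) without the libraries of low correlation. Between 72 h and 24 h in PT-S1 the smallest p were those of Cbr1, with -1.01 (SE 0.33; limma adjusted p = 0.998), and of the transferases Gsta3, Mgst1 and Gstm1, with differences of -0.78, -1.70 and -1.15 and the same adjusted p. In CCD they were those of Txn1, with 0.35 (SE 0.12; limma adjusted p = 0.968), Prdx1 (0.31), Gstp1 (-0.31) and Sod2 (0.26).

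Without the libraries of low correlation, 1 member passed, Gsr between 72 h and 24 h in PT-S1, where 1.63% of all genes passed. Its UNx effect was then 0.26 at 72 h and -0.40 at 24 h, a difference of 0.66 (SE 0.14; limma adjusted p = 0.0343). With all libraries the effects of Gsr were -0.35 and -0.32 and the difference was -0.026, so the call rested on leaving out those libraries.

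A list of 81 other genes of the same pathways held 65 tested genes in each PT-S1 table and 69 and 67 in the CCD tables of 24 h and 72 h, of which 0 passed the adjusted limma threshold in each. At an unadjusted p under 0.05 they numbered 8 (12.3%, against 17.8% of all genes) in PT-S1 at 24 h, 1 (1.54%, against 20.5%) in PT-S1 at 72 h, 6 (8.70%, against 15.5%) in CCD at 24 h and 11 (16.4%, against 7.49%) in CCD at 72 h. Their median change was 0.037 against -0.19 for all genes in PT-S1 at 24 h, -0.17 against -0.29 in PT-S1 at 72 h, 0.012 against -0.038 in CCD at 24 h and 0.068 against 0.010 in CCD at 72 h. Among the partners and repressors of NRF2 in PT-S1 at 24 h, Cul3, the scaffold of the ligase that KEAP1 serves, was at 108, 70.3 and 63.9 TPM in the 3 sham animals and 23.4, 16.4, 40.2 and 62 TPM in the 4 UNx animals, with no overlap. Its change was -1.30 (SE 0.39; limma adjusted p = 0.254). Mafk, a small MAF partner of NRF2, was at 26.1, 20.6 and 17.7 TPM in the 3 sham animals and 12.8, 14.2, 13.6 and 16.5 TPM in the 4 UNx animals, also without overlap and with a change of -0.55 (SE 0.18; limma adjusted p = 0.254). Chac2, which degrades glutathione, had a change of 0.44 (SE 0.14; limma adjusted p = 0.254) and Mgst3 of 0.54 (SE 0.19; limma adjusted p = 0.254). The change of Chac2 was 0.26 without the 2 libraries of low correlation.

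In PT-S1 at 72 h the smallest p were those of Mafg (-0.67, and -0.13 without the 2 libraries), Txnip (-0.80 and -0.47), Prdx4 and Gsto1 (-0.35 and -0.25). In CCD at 24 h, Bach1, a repressor that competes with NRF2 for the ARE, was at 3.64, 3.85, 2.93 and 3.26 TPM in the 4 sham animals and 1.76, 1.81 and 1.71 TPM in the 3 UNx animals, without overlap and with a change of -0.67 (SE 0.15; limma adjusted p = 0.0723). Ugt1a6a, a glucuronosyltransferase, had a change of 0.62 (SE 0.16; limma adjusted p = 0.101) and Ggct of -0.42 (SE 0.14; limma adjusted p = 0.189). Ggct, the gamma-glutamylcyclotransferase, had a change of -0.50 (SE 0.14; limma adjusted p = 0.293) at 72 h. There Slc3a2, the heavy chain that pairs with Slc7a11, had a change of -0.51 (SE 0.18; limma adjusted p = 0.495) and Rgn of 0.42 (SE 0.16; limma adjusted p = 0.526).

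Prdx4, the peroxiredoxin of the endoplasmic reticulum, was among the 4 smallest p of 3 tables. In CCD at 24 h it was at 28.3, 27.1, 26.5 and 25.5 TPM in the 4 sham animals and 37.6, 33.2 and 33.1 TPM in the 3 UNx animals, with a change of 0.35 (SE 0.086; limma adjusted p = 0.0931). In CCD at 72 h it was at 36.4, 29.1, 30.0 and 34.7 TPM in the 4 sham animals and 43.5, 48.4, 42 and 53.5 TPM in the 4 UNx animals, with a change of 0.51 (SE 0.12; limma adjusted p = 0.142). The groups did not overlap at either time. In PT-S1 at 72 h it was at 33.2, 43.6, 26, 49.5 and 45 TPM in the 5 sham animals and 37.3, 54.8, 61.4, 56.6 and 57.9 TPM in the 5 UNx animals, with overlap and a change of 0.45 (SE 0.21; limma adjusted p = 0.249), and in PT-S1 at 24 h its change was 0.24 (SE 0.17; limma adjusted p = 0.425). The latter was 0.15 when the 2 poorly correlated sham libraries were left out.

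The members differed in how steady they were between animals of a group. The median pooled SD of log2(TPM + 1) between animals was 0.28 for the members and 0.28 for all genes in PT-S1 at 24 h, and 0.41 and 0.36 at 72 h. In CCD it was 0.14 and 0.17 at 24 h and 0.16 and 0.25 at 72 h. The steadiest members were Taldo1 (0.11) and Gpx1 (0.11) in the PT-S1 tables and Prdx6 (0.062) and Cbr1 (0.067) in the CCD tables. The most variable were Mgst1 (1.05) in PT-S1 at 24 h, Gclc (0.77) in PT-S1 at 72 h, Hmox1 (0.73) in CCD at 24 h and Slc7a11 (0.95) in CCD at 72 h.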

How the data were processed

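The authors deposited TPM values, the length-scaled share of transcripts, for 69 libraries in 4 tables, 1 for each segment and time. Per the labels' protocols, tubules were microdissected, RNA was extracted with a Zymo kit and cDNA of polyA RNA was made with SMART-Seq V4. Per the submitters' processing notes, STAR, RSEM 1.3.3 and build GRCm39 were used, and the annotation release is not given in the sources used here. TPM sums to 1e+06 per library, so depth is unknown.

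Libraries were averaged per animal on log2(TPM + 1), with the number after Sham or UNx in the titles and column names read as the animal. For 22 of 69 columns the name gave group and animal but not a single sample title, which does not touch animal means. Printed TPM per animal are these means taken back to the TPM scale. All 69 columns were used. Fold changes are on the log2(TPM + 1) scale with a pseudocount of 1, which understates changes of low genes. Genes with a mean of at least 1 TPM were tested by limma 3.58.1 in R 4.3.3 with a mean-variance trend, two-sided, with Benjamini-Hochberg adjustment over all genes tested and a threshold of 0.05. The procedure was tested on simulated data. Tests were made within a table, and effects of 2 tables were compared as a difference in a model of 4 groups over genes of at least 1 TPM in both.

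The members, the other gene lists and the tests were chosen with earlier results of these data known. Named per table are members past the threshold, the 8 members with the smallest p and the 9 defining genes Nfe2l2, Keap1, Nqo1, Gclc, Gclm, Txnrd1, Srxn1, Slc7a11 and Hmox1. For differences of effects and for other pathway genes, those past the threshold and the 4 with the smallest p are named. Further members named were chosen after their values were seen. Marker lists covered 11 cell types, and those named in the results are the proximal tubule segments, principal cells and the lists that did not overlap between groups or stood apart in an animal named there. Gstp1, Gsta2, Gsta3, Gstm1, Gstm2, Ftl1, Fth1, Prdx1, Txn1 and Gpx4 have close relatives or pseudogenes, and how reads were divided among copies is not stated. Whether animals of the 2 segments are the same is not stated in the labels.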

Additional observations from a re-analysis of the deposited data

Results flagged for a closer look

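Among the 241 sets of 4 or 5 animals, 1 for each tested member and group of that size, 12 had an animal that stood apart by Dixon's ratio of the gap to the range on log2(TPM + 1). Chance gives about 1 in 20, which is about the share found here. In PT-S1 at 24 h, Ephx1 was at 25 TPM in UNx animal 3, with the other UNx animals at 2.82 to 4.01 TPM. In PT-S1 at 72 h, Gsta4 was at 17.1 TPM in sham animal 5, with the other sham animals at 50.5 to 60.1 TPM. In the UNx animals of the same table, Gsta4 was at 47.1 TPM in animal 4, with the others at 15.6 to 18.5 TPM. Gclm was at 293 TPM in sham animal 5 of PT-S1 at 72 h, with the others at 179 to 200.1 TPM, and Osgin1 at 24.0 TPM in sham animal 4, with the others at 37.9 to 45.2 TPM.

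In CCD at 24 h, sham animal 1 stood apart in 2 members, with Taldo1 at 538 TPM against 472 to 478 TPM in the other sham animals and Gstm1 at 558 TPM against 484 to 489.8 TPM. In CCD at 72 h, Pgd was at 36.3 TPM in sham animal 1, with the others at 58.5 to 63.2 TPM, and that animal holds the library of low correlation. Sham animal 2 of that table had Taldo1 at 513 TPM, with the others at 588 to 602 TPM, and Ugdh at 77.0 TPM, with the others at 43.7 to 47.3 TPM. UNx animal 4 had Keap1 at 51.4 TPM, with the others at 59.1 to 60.8 TPM, and Prdx6 at 371 TPM, with the others at 421 to 429 TPM.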

How the results depend on the processing

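Of 1135 recomputed log2 changes of single members, 1051 kept their direction and side of the threshold or moved little (no member was called with the settings of the report). The counts and medians given below are not among these values. The following counts are of members without overlap in either direction, with the share of all genes in parentheses. PT-S1 24 h had 6 (14.9%), against 12 (14.5%) under median-ratio scaling, 11 (12.6%) under quantile normalization and 7 to 14 when an animal was left out. The 14 (26.2%) came without sham animal 2, 11 (17.5%) without UNx animal 1, and 10 each without sham animal 3 (33.0%) and UNx animal 4 (23.1%). PT-S1 72 h had 1 (5.56%), against 0 (3.18%) with median-ratio scaling and 1 to 2 when an animal was left out, with 2 (8.18%) without sham animal 5. CCD 24 h had 3 (15.1%), against 4 to 7 when an animal was left out, with 7 (20.9%) without UNx animal 1 and at least 5 without any other except UNx animal 2, in settings where 19.4% to 24.2% of all genes did not overlap. CCD 72 h had 4 (4.77%), against 7 (5.45%) with quantile normalization, 9 (8.63%) without the library of low correlation and 4 to 10 when an animal was left out, with 10 (13%) without sham animal 1, 9 (8.54%) without UNx animal 2, and 7 each without sham animal 4 (8.18%) and UNx animal 1 (8.32%). Leaving out animals loosens this criterion by construction, since fewer animals have to be separated. Leaving out 1 animal called 0 members in each table.

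Members called by limma numbered 1 in PT-S1 24 h with every library as a replicate, 1 with animal as a random effect and 2 with quality weights, 3 in PT-S1 72 h with quality weights, and 2 and 1 in CCD 24 h with every library as a replicate and with animal as a random effect. For the difference of UNx effects between 72 h and 24 h in PT-S1, 1 member was called without the libraries of low correlation. The median change relative to all genes in PT-S1 72 h was 0.015, against -0.20 with no filter on low values and -0.11 with quantile normalization, and in CCD 72 h 0.018, against 0.13 with quality weights and 0.15 without the library of low correlation. It ranged over 0.31 to 0.53 in PT-S1 24 h, -0.0076 to 0.088 in PT-S1 72 h, 0.016 to 0.065 in CCD 24 h and -0.025 to 0.093 in CCD 72 h when an animal was left out. The cause of these moves was not tested. CCD 24 h had no library of low correlation to leave out.

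The labels give the groups shared animal numbers, but same-numbered animals did not deviate together (correlations from -0.37 to 0.33), so the numbers were not used to pair animals. With the replicate block 1 member, Mgst1, was called in PT-S1 24 h, with 81 of 11874 genes (change 2.38, limma adjusted p = 0.0193), and 0 members in the other tables. In PT-S1 24 h, UNx animal 4, the lowest UNx animal for Mgst1 (167 TPM), has no sham animal of its number. The block change is therefore the same as that without this animal, and leaving it out without the block called 0 members. In CCD 24 h sham animal 4 likewise has no UNx animal of its number.

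The log2 changes that took the other sign follow, and the cause was not tested. Quality weights gave Keap1 0.21, Nqo1 0.36, Gclc 0.24, Gclm 0.087, Txnrd1 0.074 and Hmox1 0.39 in PT-S1 72 h, Slc7a11 0.056 in CCD 24 h and Srxn1 0.0027 in CCD 72 h. Leaving out the libraries of low correlation gave Gclc -0.0067 in PT-S1 24 h, and Srxn1 0.0071, Txn1 -0.065, G6pdx 0.043, Cat 0.033, Keap1 0.19, Nqo1 0.071, Gclc 0.13, Txnrd1 0.17 and Hmox1 0.34 in PT-S1 72 h. Median-ratio scaling gave Nfe2l2 0.040 and Keap1 0.054 in PT-S1 24 h, Taldo1 0.099, Nfe2l2 0.058, Keap1 0.044, Nqo1 0.19, Gclm 0.023, Txnrd1 0.14 and Hmox1 0.32 in PT-S1 72 h, and Slc7a11 0.0093 in CCD 24 h. Quantile normalization gave Keap1 0.041 in PT-S1 24 h, Keap1 0.011, Nqo1 0.13, Txnrd1 0.0081 and Hmox1 0.23 in PT-S1 72 h, and Nqo1 0.0015 and Slc7a11 0.10 in CCD 24 h. Every library as a replicate gave Gclc -0.0043 in PT-S1 24 h, Hmox1 0.057 in PT-S1 72 h, Slc7a11 0.12 in CCD 24 h and Srxn1 0.033 in CCD 72 h, and animal as a random effect -0.0076, 0.044, 0.058 and 0.026 for the same. The log2 of the mean TPM per animal gave Gclc -0.11 in PT-S1 24 h and Hmox1 0.046 in PT-S1 72 h, and the replicate block Nfe2l2 -0.0015 in CCD 24 h. When an animal was left out, the changes ranged from -0.47 to 0.014 for Txnrd1 and -0.16 to 0.30 for Gclc in PT-S1 24 h, and from -0.21 to 0.097 for Hmox1 and -0.37 to 0.13 for Nqo1 in PT-S1 72 h. In CCD 24 h they ranged from -0.085 to 0.14 for Nfe2l2, -0.21 to 0.044 for Nqo1, -0.15 to 0.40 for Slc7a11, -0.027 to 0.12 for Gclc and -0.036 to 0.23 for Txnrd1, and in CCD 72 h from -0.020 to 0.47 for Hmox1 and -0.081 to 0.080 for Srxn1.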
